A study of Mus musculus with 2 samples.

Results

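Dlx1, Dlx2, Dlx5 and Dlx6, 4 homeobox genes, and Dlx1as and Dlx6os1, the transcripts annotated on the opposite strand of their loci, were followed across the cell types of the mouse brain at postnatal day 10. They were taken by symbol: every row of the 2 deposited count matrices with 1 of these 6 names, which gave 6 of 32285 features in both libraries. The cells were taken as fresh suspensions of brain cells of mice of the strain spelled C57BL/J in the labels. The labels name no treatment, mutation, transgene or sort, so there is 1 group, with 2 libraries numbered 1 and 2. The series gives 6 mice without tying any of them to a library. The p-values below therefore set differences between cell groups against their spread between these libraries, pooled over all groups fitted together. That spread may be technical.

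Dlx proteins are transcription factors with a homeodomain, the mouse relatives of Distal-less of Drosophila, and they bind DNA at sites built around the letters TAATTA. In the mouse forebrain they act in progenitors of the ganglionic eminences and, after birth, of the subventricular zone below the lateral ventricles, and in the GABAergic interneurons that these progenitors give rise to. The genes lie in pairs whose members are transcribed towards each other and share enhancers. In the mouse embryo Dlx1 and Dlx2 come on in progenitors before Dlx5 and Dlx6. Dlx6os1, also known as Evf2, is a long noncoding RNA whose gene covers an enhancer of the Dlx5 and Dlx6 pair.

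On genome build mm10 (GENCODE release M21), Dlx1 lies at chr2:71528113-71533981 on the plus strand and Dlx2 at chr2:71543408-71546754 on the minus strand, with 9427 bases between their ends. Dlx1as spans chr2:71516454-71537891 on the minus strand, across Dlx1, and 335 of its exon bases are also exon bases of Dlx1 on the other strand, while the last exon of 3 of its 4 transcripts shares 0 bases with Dlx1 exons. Dlx6 lies at chr6:6863334-6868568 on the plus strand and Dlx5 at chr6:6877805-6882085 on the minus strand, 9237 bases apart. Dlx6os1 spans chr6:6820189-6871592 on the minus strand, across Dlx6, and shares 0 exon bases with Dlx6 or Dlx5. Its last exon, where a 3′ assay reads, lies 38767 bases from the start of Dlx6. The assay keeps strand, but the sources used here do not say how overlapping genes were counted. Dlx1as counts are therefore uncertain.

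The homeobox is what the 4 coding genes share, so it is shown to let a reader see how far they differ. The 60 codons that encode the homeodomain are printed from the GENCODE transcripts, with capitals for the 74 of 180 bases that are not the same in all 4 genes:
Dlx1: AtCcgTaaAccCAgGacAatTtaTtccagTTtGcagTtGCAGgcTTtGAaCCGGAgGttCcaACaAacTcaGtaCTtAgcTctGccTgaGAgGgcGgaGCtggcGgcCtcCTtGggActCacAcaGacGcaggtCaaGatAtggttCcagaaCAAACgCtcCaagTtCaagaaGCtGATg
Dlx2: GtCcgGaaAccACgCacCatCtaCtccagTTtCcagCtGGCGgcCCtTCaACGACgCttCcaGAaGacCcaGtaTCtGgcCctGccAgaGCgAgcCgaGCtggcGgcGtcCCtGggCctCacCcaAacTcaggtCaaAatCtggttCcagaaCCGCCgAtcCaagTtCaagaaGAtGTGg
Dlx5: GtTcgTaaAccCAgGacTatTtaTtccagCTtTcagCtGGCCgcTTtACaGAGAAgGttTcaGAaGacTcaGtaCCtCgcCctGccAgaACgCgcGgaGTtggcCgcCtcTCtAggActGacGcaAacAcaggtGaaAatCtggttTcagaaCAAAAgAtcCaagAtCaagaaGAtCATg
Dlx6: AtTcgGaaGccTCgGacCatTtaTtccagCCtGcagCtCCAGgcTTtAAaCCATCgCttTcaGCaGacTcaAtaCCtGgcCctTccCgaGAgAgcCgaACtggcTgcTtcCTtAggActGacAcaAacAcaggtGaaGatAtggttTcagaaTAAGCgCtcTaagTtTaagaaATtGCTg
Between any pair of genes, 71.1% to 76.7% of these bases were identical. Read as codons, Dlx1 and Dlx6 encode the same residue at 58 of 60 places and Dlx2 and Dlx5 at 56, whereas the neighbours Dlx1 and Dlx2 do so at 52 and Dlx5 and Dlx6 at 51. Each homeobox thus had its closest match, by residue, in a gene on the other chromosome. The longest run identical between any 2 of them was 15 bases, in Dlx1 and Dlx2.

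Dlx6os1 was the member called between neuroblast-like and neural progenitor-like cells, and the window around its annotated start is shown for that reason. The 300 bases at chr6:6869484-6869783 (GRCm38.p6, minus strand, RefSeq) run from 250 bases before the start to 50 after it, with TAATTA in capitals:
Dlx6os1: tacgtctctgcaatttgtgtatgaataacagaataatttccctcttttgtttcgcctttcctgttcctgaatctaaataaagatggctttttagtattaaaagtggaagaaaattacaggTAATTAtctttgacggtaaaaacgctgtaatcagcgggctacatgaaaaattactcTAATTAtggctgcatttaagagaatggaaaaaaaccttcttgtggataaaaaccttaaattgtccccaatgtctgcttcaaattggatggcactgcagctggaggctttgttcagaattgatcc
TAATTA reads the same on both strands, and this window held it 2 times. The window of a second annotated start, chr6:6861634-6861933, held it 1 time, and the windows of Dlx1 and Dlx2 held it 0 times. Of 32851 mouse promoter windows of this length, 5.291% held the letters at least 1 time. A match in letters is not a binding site, and no match says only that the letters are not in that window.

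The libraries were made with the Chromium 3′ v3 kit, a droplet assay in which each captured RNA molecule is given a random tag at the 3′ end, the UMI, so that a molecule gives 1 count whatever its length. Library 1 held 12978 barcodes and 51452085 UMIs, and library 2 held 19508 barcodes and 45532691 UMIs. Library 2 was shallower, with a median of 1470 UMIs per barcode against 3446 in library 1, and 76.7% of its barcodes passed the quality limits against 97.2%. After quality limits and removal of doublets 11992 cells of library 1 and 14068 of library 2 were kept. The libraries shared 90 barcode sequences, which is counted here and not corrected for. Cells fell into 30 clusters, which were named "X-like" by marker genes that do not include the 6 members. In library 2, 4910 cells were left unnamed, most of them in 2 clusters with a median of 966 and 994 UMIs, against 716 unnamed cells in library 1.

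Levels are given in CPM, the UMIs of a gene in the summed cells of a class and library, scaled to a total of 1000000. By the mean of both libraries, and among the classes with at least 50 cells in both, all 6 members were highest in neuroblast-like cells (migrating young neurons, 3757 and 3460 cells) and next highest in neural progenitor-like cells (1605 and 798 cells), with overlapping ranges for Dlx2. Neuroblast-like cells held 53.5% of the members' UMIs in library 1 and 59.98% in library 2, and progenitor-like cells held 40.2% and 21.5%. In library 2 a further 14.6% lay in unnamed cells, against 2.998% in library 1. Of the kept cells, 5401 of 11992 in library 1 and 6467 of 14068 in library 2 had at least 1 UMI of a member.

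Dlx1 stood at 509.5 CPM in library 1 and 502 CPM in library 2 in neuroblast-like cells, and at 405 and 321 CPM in neural progenitor-like cells. Dlx2 stood at 435 and 414 CPM in neuroblast-like cells, and at 442 and 374 CPM in progenitor-like cells. The ranges over libraries did not overlap for Dlx1 and did so for Dlx2. Dlx5 had 117 and 115 CPM in neuroblast-like cells and 69.6 and 87.5 CPM in progenitor-like cells. Dlx6 had 34.5 CPM in both libraries of neuroblast-like cells and 30.5 and 31.6 CPM in progenitor-like cells, a narrow gap at 140 to 286 UMIs per sum. The progenitor-like class pools unlike clusters: Dlx5 and Dlx6 averaged 134 and 47.1 CPM in its cluster led by Ube2c, above the neuroblast-like means, and had 0 UMIs in its cluster led by Fabp7. Dlx1as had 58.1 and 52.7 CPM in neuroblast-like cells and 39.0 and 40.8 CPM in progenitor-like cells. Dlx6os1 had 921 and 1003 CPM in neuroblast-like cells and 303 and 361 CPM in progenitor-like cells, the widest gap of the 6.

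Apart from fibroblast-like cells, every other named class with at least 50 cells in both libraries lay far below. The sum of the 4 coding members was 2.14% of its neuroblast-like level in astrocyte-like cells, and Dlx1 averaged 10.8 ± 0.47 CPM there (SD, n = 2 libraries). Oligodendrocyte precursor-like cells (1581 and 640 cells) had 8.43 ± 2.48 CPM of Dlx1 and 9.003 ± 2.21 CPM of Dlx6os1. Excitatory neuron-like cells (1177 and 798 cells) had 12.5 ± 2.42 CPM of Dlx1 and 21.0 ± 5.59 CPM of Dlx6os1. Endothelial-like and microglia-like cells, which should lack these genes, had 7.50 ± 3.12 and 8.04 ± 5.38 CPM of Dlx1, and 21.7 ± 4.54 and 15.9 ± 11.02 CPM of Dlx6os1. Pooled Dlx1 and Dlx6os1 levels in astrocyte-like and oligodendrocyte precursor-like cells were therefore not above the classes that mark free RNA in droplets. They are read as background, not as expression. Dlx2 averaged 10.3 CPM in astrocyte-like cells, against 7.44 in endothelial-like, 4.41 in microglia-like and 9.12 in pericyte-like cells. Oligodendrocyte precursor-like cluster 14 had 11.94 to 16.2 CPM of Dlx1 and 11.8 to 24.97 CPM of Dlx2, and cluster 13 had less. Endothelial-like and microglia-like cells reached 11.85 and 7.94 CPM, and pericyte-like Dlx2 reached 13.96 CPM. Whether the levels of cluster 14 and of astrocyte-like Dlx2 exceed background was not tested. Excitatory neuron-like cells pooled clusters that differed: cluster 11 (193 and 147 cells) had 36.4 and 28.04 CPM of Dlx1 and 44.1 and 53.3 CPM of Dlx6os1, above both background classes in both libraries, while cluster 15 (984 and 651 cells) had 6.92 and 12.01 CPM of Dlx1. Glutamatergic intermediate progenitor-like cells, precursors of excitatory neurons, were somewhat above, at 22.2 ± 5.19 CPM of Dlx1 and 30.1 ± 10.4 CPM of Dlx6os1.

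**Figure D1:**
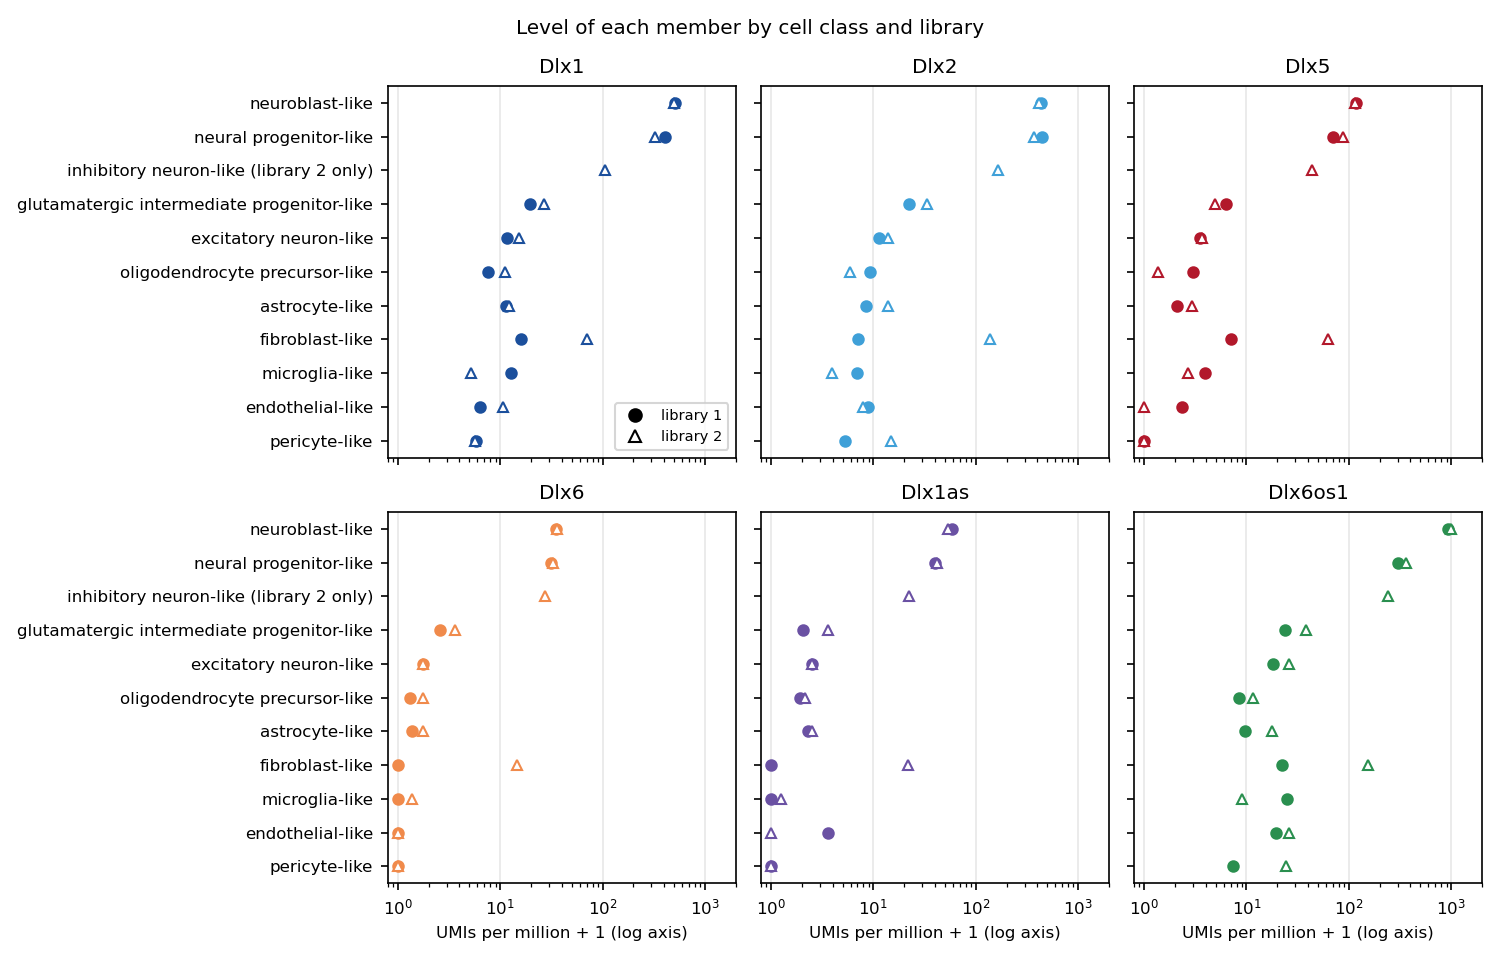
Level of each member (CPM + 1, log axis) by class, with 1 panel a member, with a circle for library 1 and an open triangle for library 2. In all 6 panels the neuroblast-like and neural progenitor-like classes sit highest among the classes found in both libraries, with Dlx1 at 502 to 509.5 and 321 to 405 CPM, and most other classes lie near the endothelial-like and microglia-like values.

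Fibroblast-like cells were the exception, and their libraries disagreed. Dlx1 was at 15.03 CPM in library 1 and 68.8 CPM in library 2, and Dlx2 was at 6.01 and 138 CPM. The fibroblast-like barcodes of library 2 had a median of 989 UMIs against 4964 in library 1, so the high values came with low-UMI barcodes. Whether those barcodes are fibroblasts was not tested. In the order of levels over 10 classes, fibroblast-like cells took the third place for every member on the strength of library 2, and for 5 of 6 members, all but Dlx5, their range over libraries overlapped that of glutamatergic intermediate progenitor-like cells. Below excitatory neuron-like levels, most neighbours in the order did not differ beyond their range over libraries.

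Comparisons between classes were tested on the class sums by edgeR's quasi-likelihood method, with library as a block, over all genes not used for clustering or as markers. Calls needed an adjusted p (Benjamini-Hochberg) below 0.05, a log2 difference of 1 or more in size, and agreement of the 2 libraries in sign. Progenitor-like cells were set against astrocyte-like cells, the glia that share many progenitor genes. All 6 members were called higher in progenitor-like cells, where 32.7% of 13362 genes were called in either direction, 11.2% as higher and 21.5% as lower. The log2 fold changes ran between 4.86 ± 0.29 (SE) for Dlx6os1 and 5.91 ± 0.41 for Dlx6, with adjusted p between 3.9e-14 and 2.6e-11 by edgeR. The astrocyte-like levels in these folds lay at or near those of the background classes.

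Neuroblast-like cells were then set against neural progenitor-like cells. Of the 6 members, 1 was called, where 24.6% of all genes were called in either direction, 12.3% as higher and 12.3% as lower. Dlx6os1, the noncoding transcript of the Dlx5 and Dlx6 locus, rose by 1.63 ± 0.23 on the log2 scale (1.68 in library 1 and 1.57 in library 2, edgeR adjusted p = 2.0e-06). Dlx1, Dlx5 and Dlx1as passed the p threshold with folds under the limit: their log2 fold changes were 0.56 ± 0.19, 0.66 ± 0.20 and 0.56 ± 0.20 with edgeR adjusted p of 0.0165, 0.00966 and 0.0218. Dlx2 and Dlx6 did not pass, at 0.14 ± 0.25 (edgeR adjusted p = 0.687) and 0.24 ± 0.20 (edgeR adjusted p = 0.345). The coding genes thus stayed within a log2 fold of 1 of their progenitor-like level while the antisense transcript of the second pair did not.

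Neuroblast-like cells were also set against excitatory neuron-like cells, a comparison chosen after the data were seen. All 6 members were called higher, with log2 fold changes of 5.27 to 5.66, where 14.4% of genes were called in either direction, 6.17% as higher and 8.18% as lower. Oligodendrocyte precursor-like cells, part of which come from the ventral forebrain, were set against astrocyte-like cells, and 0 of 6 members were called where 24.2% of genes were (10.9% higher and 13.3% lower). Their log2 fold changes lay between -0.44 and 0.15 with edgeR adjusted p of 0.321 to 0.938. Of these members, 0 had an unadjusted p under 0.05, and DESeq2 also called 0. Both classes were at or near the levels of the background classes, where a difference may not be detectable.

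Clusters inside and next to the 2 Dlx-rich classes differed, and they are described by their leading genes. An unnamed Egfr-led cluster (603 and 277 cells) had Helt, Egfr, Dll1 and Hes5 among its 10 leading genes. The histone-led cluster (871 and 337 cells) and the Ube2c-led cluster (578 and 305 cells) were progenitor-like and led by genes of DNA replication and of mitosis. The Ccnd2-led (1236 and 1265 cells), Nrxn3-led (1294 and 1361 cells) and Adarb2-led clusters (1227 and 834 cells) were neuroblast-like. The Fabp7-led cluster (156 and 156 cells) was progenitor-like with 1 astrocyte marker among its 10 leading genes, and the Aqp4-led cluster (523 and 376 cells) was astrocyte-like. Of the 10 leading genes, the Nrxn3-led cluster had 1 neuroblast marker and 2 inhibitory neuron markers, and the histone-led and Adarb2-led clusters had 0 markers of their own class, so these names rest on lower-ranked markers.

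In the Egfr-led cluster Dlx1 and Dlx2 were present without much of the rest. Dlx1 was at 98.8 CPM in library 1 and 85.1 CPM in library 2, against 10.96 and 7.38 CPM in the Aqp4-led cluster. Dlx2 was at 107 and 80.3 CPM, against 8.77 and 11.3 CPM in Aqp4-led cells. Dlx1, Dlx2 and Dlx1as were called higher, 3 of 6 members, where 6.74% of 13191 genes were called higher, 12.5% lower and 19.3% in either direction. Their log2 fold changes were 3.27 ± 0.28 (edgeR adjusted p = 1.2e-12), 3.25 ± 0.31 (edgeR adjusted p = 2.0e-11) and 2.88 ± 0.58 (edgeR adjusted p = 1.1e-04). Dlx5, Dlx6 and Dlx6os1 were not called. Dlx5 had 13 UMIs in library 1 and 1 in library 2 of the Egfr-led cluster, Dlx6 had 7 and 0, and Dlx6os1 was at 21.5 and 8.61 CPM, against 6.58 and 12.3 CPM in Aqp4-led cells. A Dlx6 count of 0 in library 2 allows a level of up to 2.87 CPM. The difference in response between the members was not itself tested.

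All 6 members were called higher in the dividing Ube2c-led cluster than in the Egfr-led cluster, where 7.83% of genes were called higher, 9.86% lower and 17.7% in either direction. Dlx5, a later-acting member of the family, stood at 105 and 163 CPM in Ube2c-led cells, against 5.38 and 0.956 CPM in Egfr-led cells, a log2 fold change of 5.11 ± 0.33 (edgeR adjusted p = 3.2e-16). Dlx6os1 stood at 452 and 605 CPM, against 21.5 and 8.61 CPM in Egfr-led cells, a log2 fold change of 5.01 ± 0.24 (edgeR adjusted p = 8.4e-21). Dlx1 stood at 535 and 522 CPM, against 98.8 and 85.1 CPM in Egfr-led cells, a log2 fold change of 2.65 ± 0.17 (edgeR adjusted p = 8.4e-17). The members thus moved by unequal amounts: Dlx2 and Dlx1as rose by 2.77 ± 0.19 and 2.97 ± 0.30 and Dlx6 by 4.63 ± 0.41. Each fold was of the same sign in both libraries.

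**Figure D2:**
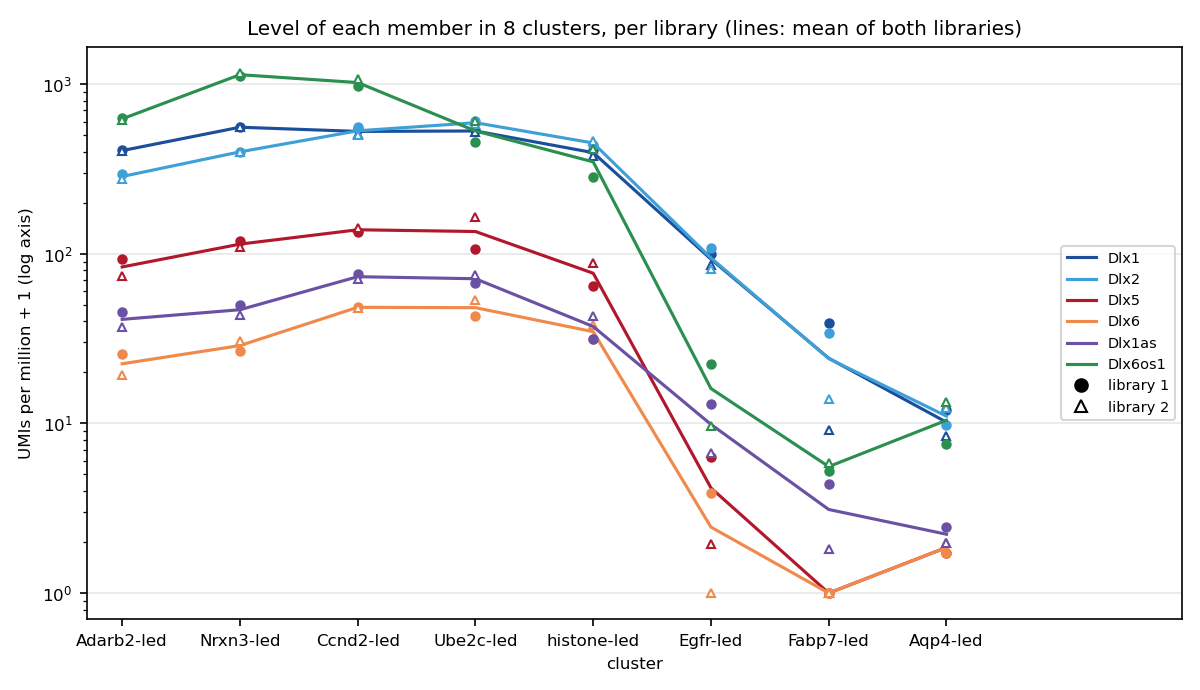
Level of each member (CPM + 1, log axis) in 8 clusters, with lines through the mean of both libraries, from the Adarb2-led neuroblast-like cluster on the left to the Aqp4-led astrocyte-like cluster on the right, with a circle for library 1 and an open triangle for library 2. Dlx1 and Dlx2 lie at 80.3 to 107 CPM in the Egfr-led cluster, well above the Aqp4-led values, while Dlx5, Dlx6 and Dlx6os1 drop to 21.5 CPM or less there.

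The Ccnd2-led cluster was led in part by Ccnd2, a cyclin. Between Ccnd2-led and Ube2c-led cells, 0 of 6 members were called, where 8.56% of genes were (3.38% higher and 5.18% lower). Dlx6os1 came close: it stood at 975.5 and 1064 CPM in Ccnd2-led cells, against 452 and 605 CPM in Ube2c-led cells, a log2 fold change of 0.97 ± 0.15 (edgeR adjusted p = 2.7e-06) just under the limit of 1. The other 5 members had log2 fold changes of -0.16 to 0.09 and edgeR adjusted p of 0.546 to 1. By edgeR 1 of 6 members had an unadjusted p under 0.05, and DESeq2 also called 0.

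Between Nrxn3-led and Ccnd2-led cells 0 of 6 members were called, where 6.39% of genes were (2.8% higher and 3.59% lower). Dlx6 stood at 25.8 and 29.7 CPM in Nrxn3-led cells, against 47.6 and 47.1 CPM in Ccnd2-led cells, and its log2 fold change of -0.76 ± 0.23 passed the p threshold (edgeR adjusted p = 0.0177) below the fold limit. Dlx1as did the same, at -0.65 ± 0.22 (edgeR adjusted p = 0.0371). Dlx2 was at -0.40 ± 0.15 (edgeR adjusted p = 0.0666), while Dlx1 was at 0.09 ± 0.14 and Dlx6os1 at 0.16 ± 0.14. By edgeR 3 of 6 had an unadjusted p under 0.05, and DESeq2 called 0.

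Adarb2-led cells, where Pbx3, Prokr2 and Erbb4 lead, were lower than Nrxn3-led cells in 4 members by p but in 0 of 6 by call, where 4.68% of genes were called (3.65% higher and 1.03% lower). Dlx6os1 stood at 632 and 614 CPM in Adarb2-led cells, against 1109 and 1161 CPM in Nrxn3-led cells, a log2 fold change of -0.99 ± 0.15 (edgeR adjusted p = 7.5e-06) just inside the limit. Dlx1 was at -0.59 ± 0.14 (edgeR adjusted p = 0.00392), Dlx2 at -0.61 ± 0.16 (edgeR adjusted p = 0.0107) and Dlx5 at -0.55 ± 0.18 (edgeR adjusted p = 0.0461). By edgeR the same 4 had an unadjusted p under 0.05, and DESeq2 called 0. With stricter limits on cells the cluster that matched the Adarb2-led one best was smaller (253 and 146 cells) and inhibitory neuron-like. For it, 4 members were called against Nrxn3-led cells. More genes were also called in that comparison, 1421 against 617 at the settings used throughout. The Adarb2-led cells had a median of 1643 and 1582.5 UMIs, against 1773.5 and 1823 in Nrxn3-led cells.

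**Figure D3:**
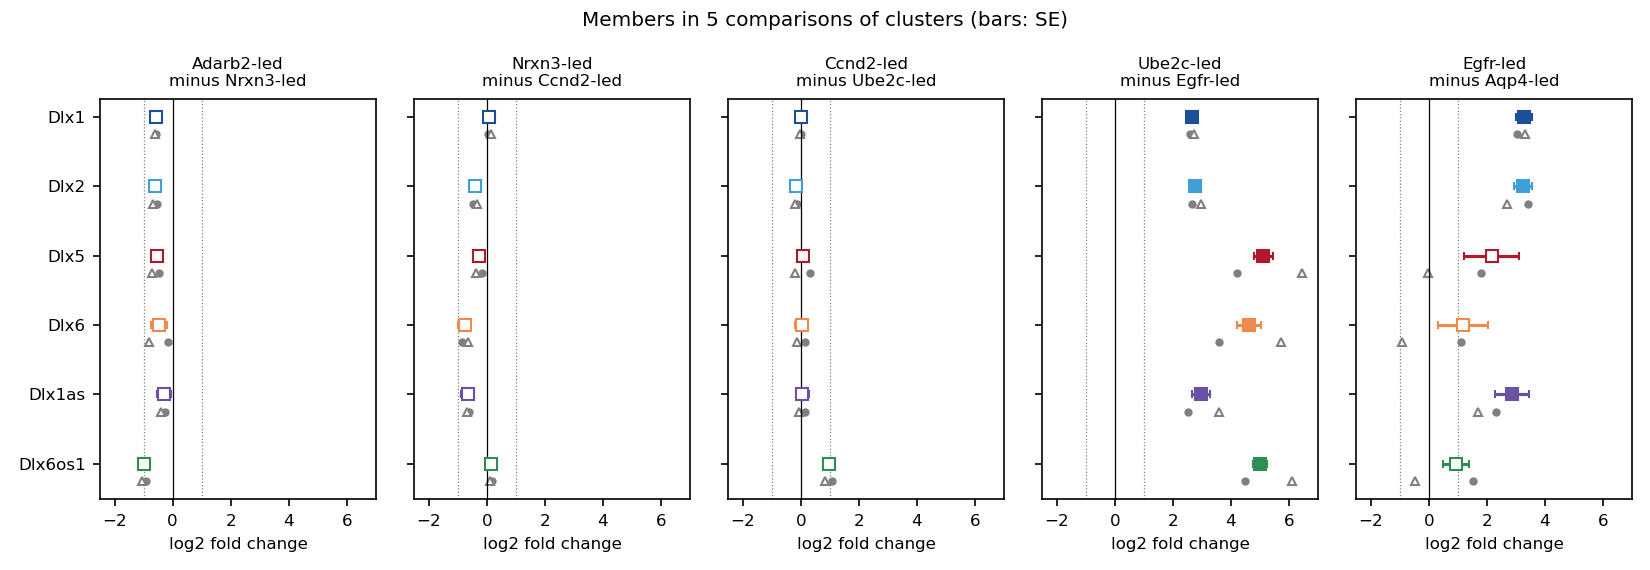
Log2 fold change of each member in 5 comparisons of clusters, with bars for 1 SE, small grey circles and triangles for libraries 1 and 2, filled squares for called and open squares for not called members, and dotted lines at -1 and 1. All members lie far to the right for Ube2c-led against Egfr-led cells (2.65 to 5.11), and within or at the limits between the neuroblast-like clusters.

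The Fabp7-led cluster carried Dlx1 and Dlx2 UMIs but 0 of Dlx5 or Dlx6 in either library, which allows up to 2.56 CPM in library 1 and 2.44 CPM in library 2. Dlx1 was at 38.3 CPM in library 1 and 8.12 CPM in library 2, against 10.96 and 7.38 CPM in Aqp4-led cells. It was called higher, the 1 member of 6, where 4.73% of genes were called higher, 7.69% lower and 12.4% in either direction (log2 fold change 1.23 ± 0.41, edgeR adjusted p = 0.023). The difference was 1.66 in library 1 and 0.08 in library 2, so it rests on library 1. Dlx2 was at 33.2 and 12.99 CPM, against 8.77 and 11.3 CPM in Aqp4-led cells (log2 fold change 1.16 ± 0.45, edgeR adjusted p = 0.0561).

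Few cells were named inhibitory neuron-like. At the settings used throughout, an inhibitory neuron-like cluster led by Npy, Sst and Nos1, genes of interneurons of the medial ganglionic eminence, held 0 cells in library 1 and 113 in library 2, with a median of 1029 UMIs. Dlx1 was at 106 CPM there (exact Poisson 95% interval 64.6 to 163, 20 UMIs), Dlx2 at 164 CPM (111 to 233) and Dlx6os1 at 243 CPM (178 to 324), which cover counting error only. In the same library 19 erythroid-like cells, which should lack these genes, had 163 CPM of Dlx1 and 344 CPM of Dlx6os1, and the unnamed low-UMI clusters 22 and 23 had 165 and 139 CPM of Dlx1 and 269 and 280 CPM of Dlx6os1. The Dlx1 and Dlx6os1 levels of the inhibitory neuron-like cells of library 2 are not above these. Their Dlx2 level was above the 112 CPM of erythroid-like cells but below cluster 22 (172 to 262 CPM over libraries). Dlx5 and Dlx6, at 42.3 and 26.4 CPM, were above erythroid-like cells (17.2 CPM of each). They were also above cluster 22, which had up to 41.0 and 16.6 CPM, narrowly so for Dlx5. Both genes rest on fewer UMIs than the 20 of Dlx1, so these gaps may be counting error. With 113 cells of low depth in 1 library, none of these levels is read as expression. The planned tests of this class could not be run with 1 library. With stricter limits on cells (1000 genes or more per cell, and 5% of UMIs or fewer from mitochondria) a cluster led by Npy, Sst and Adarb2 was found in both libraries, with 253 and 146 cells. Of these cells 92.1% and 82.9% had been in the Adarb2-led cluster.

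Under those limits inhibitory neuron-like cells had less of the members than neuroblast-like cells and far more than excitatory neuron-like cells. Dlx2 stood at 255 and 147 CPM in inhibitory neuron-like cells, against 527 and 482 CPM in neuroblast-like cells. Dlx6os1 stood at 507 and 240.0 CPM, against 1004 and 1122 CPM in neuroblast-like cells. Neither pair of ranges overlapped, though the inhibitory neuron-like libraries differed from each other. Of 6 members 5 were called lower, where 4.81% of 12868 genes were called lower, 8.73% higher and 13.5% in either direction. The log2 fold changes were -1.34 ± 0.22 for Dlx1, -1.46 ± 0.19 for Dlx2, -1.42 ± 0.27 for Dlx5, -1.22 ± 0.32 for Dlx6 and -1.64 ± 0.25 for Dlx6os1, with edgeR adjusted p of 5.6e-07 to 0.00534. Dlx1as was at -0.93 ± 0.28 (edgeR adjusted p = 0.0153), under the fold limit.

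Against excitatory neuron-like cells all 6 members were called higher in inhibitory neuron-like cells under the same limits, where 3.9% of genes were called higher, 3.19% lower and 7.09% in either direction. Dlx1 stood at 285 and 187 CPM in inhibitory neuron-like cells, against 21.5 and 16.9 CPM in excitatory neuron-like cells, a log2 fold change of 3.54 ± 0.27 (edgeR adjusted p = 2.4e-11). The other 5 lay between 3.26 ± 0.29 for Dlx6os1 and 5.40 ± 0.67 for Dlx6. Dlx6 had 1 UMI in each excitatory neuron-like library, so the size of its fold is loose. The inhibitory neuron-like class took in other cells under other clustering settings. The number of members called lower than in neuroblast-like cells was then 0 to 6, where 7.11% to 12.2% of genes were called in either direction.

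Because free RNA from 1 source keeps its genes in 1 ratio, ratios of UMIs within a cell group were compared between groups. Ratios between genes depend on how well each is captured, so a ratio is read against the same ratio in other cells. Dlx1 made up 57.8% and 59.6% of Dlx1 plus Dlx2 UMIs in Adarb2-led cells and 58.2% and 58.4% in Nrxn3-led cells, against 49.5% and 50.1% in Ccnd2-led cells and 47.0% and 47.4% in Ube2c-led cells. The Wilson 95% intervals of Nrxn3-led cells (56.2% to 60.2% and 56.5% to 60.4%) and of Ccnd2-led cells (47.8% to 51.1% and 48.3% to 51.9%) did not overlap. The balance of the first pair thus lay further to Dlx1 in Nrxn3-led cells, in both libraries. Egfr-led cells had 48.1% and 51.4%, near the values of the Ube2c-led cells.

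Dlx5 made up 82.0% and 78.5% of Dlx5 plus Dlx6 UMIs in Nrxn3-led cells, against 73.8% and 75.0% in Ccnd2-led cells and 67.8% and 70.3% in histone-led cells. The intervals of Nrxn3-led and Ccnd2-led cells overlapped in library 2 (73.9% to 82.4% and 71.2% to 78.4%). Dlx1 and Dlx2 together made up 96.1% and 99.4% of the UMIs of the 4 coding genes in Egfr-led cells, against 88.5% and 83.6% in Ube2c-led cells and 85.8% and 84.3% in Ccnd2-led cells. In Fabp7-led cells they made up 100% of 84 and of 26 UMIs. The share in Egfr-led cells, with intervals of 94.1% to 97.5% and 96.8% to 99.9%, was thus above that in Ube2c-led and Ccnd2-led cells. The background classes held few of these UMIs: the share was 90.9% of 11 and 100% of 12 in endothelial-like, 85.7% of 7 and 77.6% of 76 in microglia-like and 100% of 17 and of 4 in pericyte-like cells. With 11 and 12 UMIs, the endothelial-like share cannot be told apart from those of Egfr-led and Fabp7-led cells. The microglia-like share of library 2, which rests on more UMIs, was below both, while that of library 1 rests on 7 UMIs. In level, Dlx1 and Dlx2 averaged 92.0 and 93.5 CPM in Egfr-led and 23.2 and 23.1 CPM in Fabp7-led cells. Endothelial-like cells averaged 7.50 and 7.44 CPM.

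Dlx6os1 made up 49.4% and 52.3% of the UMIs of Dlx1, Dlx2 and Dlx6os1 in neuroblast-like cells, against 26.4% and 34.2% in progenitor-like cells. By cluster the share was 53.7% and 54.9% in Nrxn3-led, 47.0% and 51.4% in Ccnd2-led, 28.4% and 35.5% in Ube2c-led, 24.96% and 33.0% in histone-led and 9.5% and 4.9% in Egfr-led cells. The share was thus lower in the dividing clusters than in all 3 neuroblast-like clusters, where Adarb2-led cells had 47.4% and 47.6%, and it was lowest in the Egfr-led cells of these groups. In endothelial-like cells it was 58.3% of 24 UMIs in library 1 and 18 of 30 UMIs in library 2, and in microglia-like cells it was 57.1% and 53.2%, near the neuroblast-like share, and the low share of Egfr-led cells differed from both background classes with Wilson 95% intervals of 7.3% to 12.2% and 2.6% to 9.1%. Dlx1as made up 12.03% and 12.2% of Dlx1 plus Dlx1as UMIs in Ccnd2-led cells and 8.1% and 7.1% in Nrxn3-led cells. In the 2 low-UMI unnamed clusters of library 2, Dlx6os1 was 44.4% and 50.9% of these 3 genes.

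**Figure D4:**
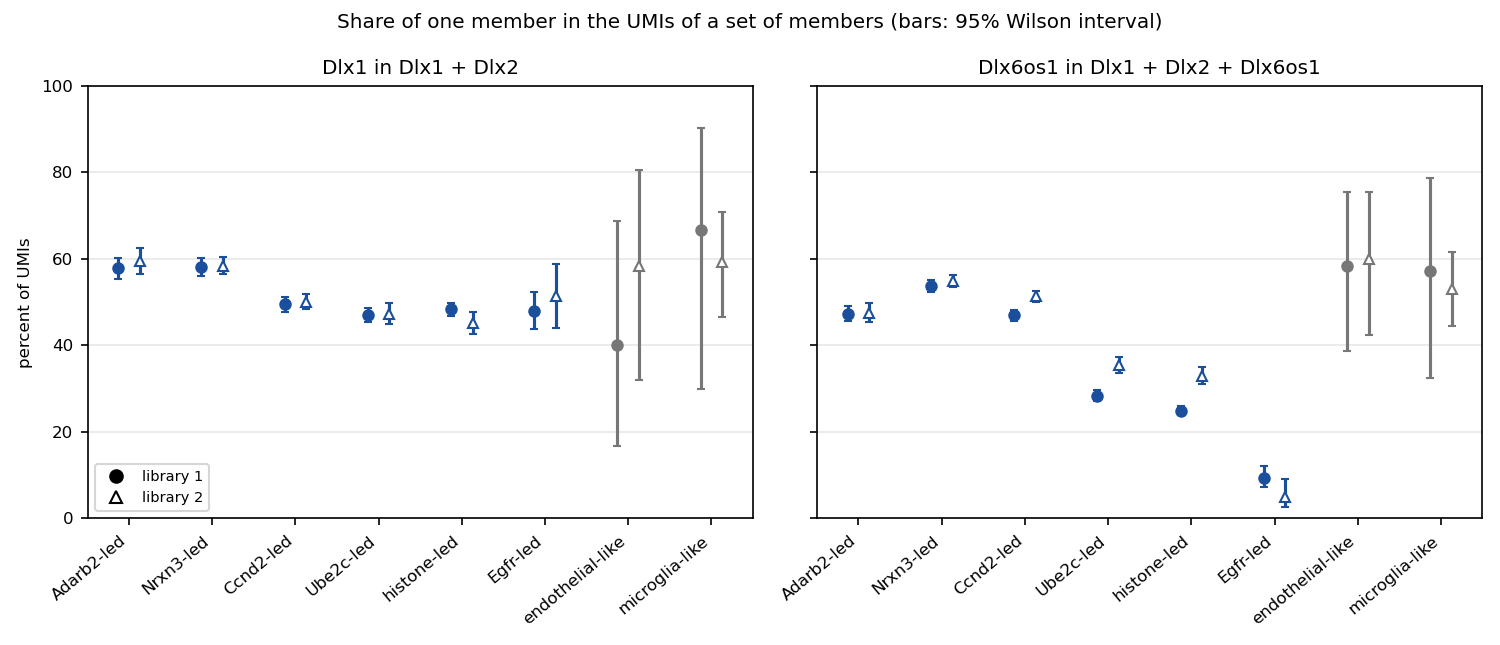
Share of UMIs (percent) for Dlx1 in Dlx1 plus Dlx2 (left) and Dlx6os1 in Dlx1, Dlx2 and Dlx6os1 (right), by cluster and in the endothelial-like and microglia-like classes, with a circle for library 1, an open triangle for library 2 and bars for the Wilson 95% interval. The share of Dlx6os1 in Dlx1, Dlx2 and Dlx6os1 is 47.0% to 54.9% in the neuroblast-like clusters and 4.9% to 9.5% in the Egfr-led cluster.

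Shares of cells with a UMI were compared after each cell was thinned to 2000 UMIs, with shallower cells left out (2218 and 2069 neuroblast-like and 38 and 37 progenitor-like cells). At least 1 UMI of any member was seen in 94.5% ± 0.11 of neuroblast-like cells (SD, n = 2 libraries) and 72.4% ± 2.26 of progenitor-like cells. The background classes showed 5.92% ± 2.42 in endothelial-like cells (median depth 5847 and 4476 UMIs) and 4.09% ± 2.07 in microglia-like cells (3108 and 3632 UMIs), against median depths of 1849 and 1863 UMIs in neuroblast-like and 5501 and 4989.5 UMIs in progenitor-like cells. Unthinned, the shares were 93.0%, 77.7%, 6.98% and 5.42% in the same order. Most neuroblast-like cells deep enough to judge thus showed a member, and a part of the progenitor-like cells did not at this depth.

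UMIs of at least 3 of the 6 members were seen in 44.4% ± 0.52 of neuroblast-like and 29.1% ± 0.27 of progenitor-like cells, against 0.526% ± 0.744 of endothelial-like cells. Unthinned the order was the other way, with 40.02% ± 0.51 of neuroblast-like and 55.0% ± 0.09 of progenitor-like cells, whose median depth was higher, so no order is read from this share. In Egfr-led cells any member was seen in 20.1% and 14.96% of cells (median depth 3934 and 3704 UMIs), and at least 3 members in 1.10% ± 1.55. Excitatory neuron-like cells showed any member in 4.41% and 4.70% of cells, within the range of the background classes. The endothelial-like share was 4.21% and 7.63%, with exact 95% intervals up to 10.4% and 14.0%, and those of Egfr-led cells started at 16.8% and 10.6%. The intervals of these groups were thus apart in library 1 and overlapped in library 2.

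In Egfr-led cells with a Dlx1 UMI, Dlx2 was seen in 61.4% of 57 cells in library 1 and 57.1% of 21 in library 2, against 7.76% of 490 and 5.16% of 213 cells without a Dlx1 UMI. In histone-led cells Dlx2 was seen in 66.6% and 60.4% of cells with Dlx1, against 39.3% and 39.2% without. In Ccnd2-led cells the shares were 63.9% and 62.5% with Dlx1, against 65.5% and 59.1% without, and in Adarb2-led cells 48.4% and 39.7% with Dlx1, against 33.7% and 32.1% without. In Egfr-led cells Dlx2 was thus seen in a larger share of cells with Dlx1 than without. Of the Egfr-led cells with Dlx2, 35 and 12 had a Dlx1 UMI, and 38 and 11 did not. In Ccnd2-led cells the shares with and without Dlx1 were close. At the second locus, in histone-led cells Dlx6os1 was seen in 64.5% and 71.4% of cells with a Dlx5 UMI, against 31.4% and 47.8% without, and in Ccnd2-led cells in 82.1% and 86.3% with Dlx5, against 76.2% and 79.9% without. In Adarb2-led cells Dlx6os1 was seen in 51.4% and 64.0% of cells with Dlx5, against 55.2% and 49.1% without, and in 67.2% and 70.5% of cells with Dlx1, against 45.2% and 37.5% without. Cells of 1 library share a suspension, and these shares are given without a test.

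**Figure D5:**
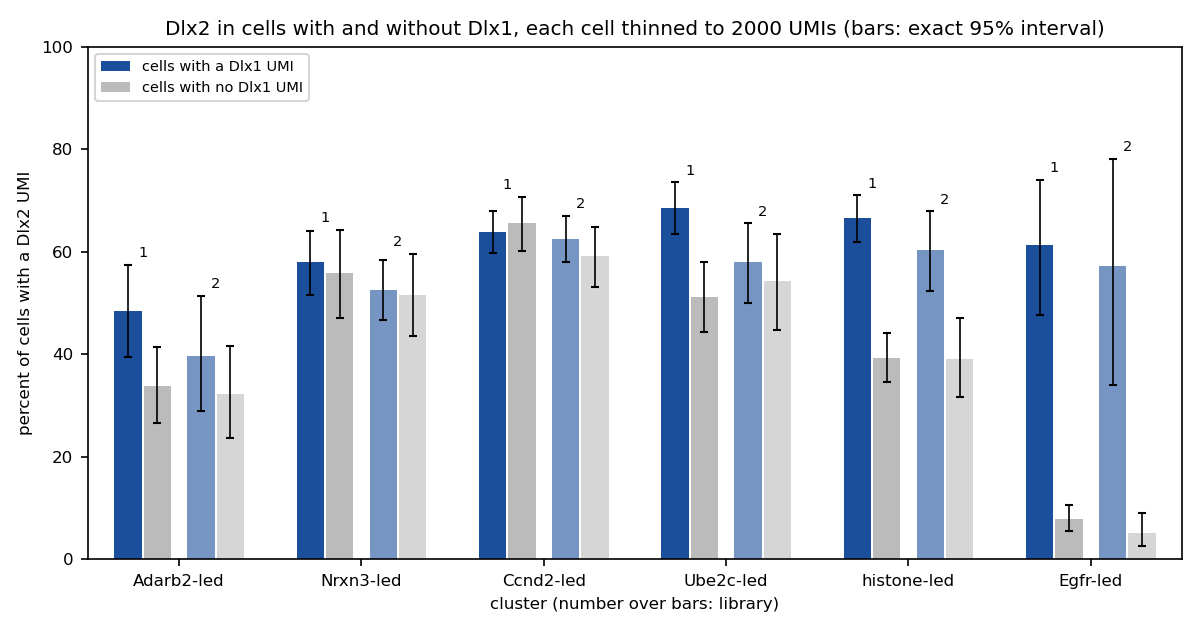
Share of cells (percent, after thinning to 2000 UMIs) with a Dlx2 UMI, by cluster, with blue bars for cells with a Dlx1 UMI and grey bars for cells without, the library number over each pair and error bars for the exact 95% interval. The gap is widest in Egfr-led cells (61.4% and 57.1%, against 7.76% and 5.16%) and small in Ccnd2-led and Nrxn3-led cells.

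Other transcription factors of the forebrain GABAergic lineage, a list of 32 genes, were read beside the members. Between neuroblast-like and progenitor-like cells 13 of 28 tested genes were called higher and 5 lower, where 12.3% and 12.3% of all genes were. Their median log2 fold change was 0.93, against 0.10 over all genes tested. Pbx3, a partner of homeodomain factors, stood at 145 and 109 CPM in neuroblast-like cells, against 21.3 and 16.2 CPM in progenitor-like cells, and rose by 2.84 ± 0.19 on the log2 scale (edgeR adjusted p = 3.0e-12). Gsx2, a homeobox factor of progenitors of the lateral ganglionic eminence, fell by 2.89 ± 0.25 (edgeR adjusted p = 2.4e-09). Pbx3 and Gsx2 are named for their large folds among the called genes of the list, so no contrast with the members is drawn from them.

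Between Ube2c-led and Egfr-led cells 11 of 29 tested genes of the list were called higher and 2 lower, where 7.83% and 9.86% of all genes were. Their median was 0.80, against -0.05 over all genes. Sp8 and Sp9, zinc finger factors of olfactory bulb interneurons, rose by 4.68 ± 0.27 (edgeR adjusted p = 2.4e-18) and by 4.44 ± 0.24 (edgeR adjusted p = 3.2e-19). Between Egfr-led and Aqp4-led cells 7 were higher and 3 lower (median 0.35, against -0.02 over all genes), where 6.74% and 12.5% of all genes were. Gsx2 stood at 56.2 and 44.9 CPM in Egfr-led cells, against 4.75 and 0.983 CPM in Aqp4-led cells. Between Ccnd2-led and Ube2c-led cells 0 were higher and 5 lower (median 0.19, against 0.07), where 3.38% and 5.18% of all genes were. Between Nrxn3-led and Ccnd2-led cells 6 were higher and 3 lower (median 0.43, against 0.03), where 2.8% and 3.59% of all genes were. Between Adarb2-led and Nrxn3-led cells 8 were higher and 0 lower (median 0.26, against -0.03), where 3.65% and 1.03% of all genes were. Six3 and Maf, factors of striatal neurons and of cortical interneurons, were among those called, at log2 fold changes of 2.62 ± 0.43 and 1.75 ± 0.29 (edgeR adjusted p of 3.3e-05 and 2.8e-05). The class comparisons with progenitor-like against astrocyte-like, oligodendrocyte precursor-like against astrocyte-like and neuroblast-like against excitatory neuron-like cells gave 13 higher and 3 lower, 6 and 7, and 19 and 2. Of all genes 11.2% and 21.5%, 10.9% and 13.3%, and 6.17% and 8.18% were called there. Between Fabp7-led and Aqp4-led cells 3 were higher and 0 lower, where 4.73% and 7.69% of all genes were. Dlx3 and Dlx4, further genes of the family, were at 0 UMIs.

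Of 15 guidance and migration genes of young interneurons, 9 were called higher and 1 lower in neuroblast-like than in progenitor-like cells, with a median log2 fold change of 1.45, against 0.10 over all genes. Prokr2, the prokineticin receptor of migrating neuroblasts, stood at 71.6 and 59.6 CPM in neuroblast-like cells, against 1.92 and 2.71 CPM in progenitor-like cells, and rose by 4.98 ± 0.28 (edgeR adjusted p = 4.0e-13). Erbb4, the neuregulin receptor, rose by 3.31 ± 0.21 (edgeR adjusted p = 2.0e-12) and Plxna4, a semaphorin receptor, by 3.14 ± 0.21 (edgeR adjusted p = 5.3e-12). By cluster, 7 of the 15 were higher and 1 lower in Nrxn3-led than in Ccnd2-led cells and 4 higher and 0 lower in Adarb2-led than in Nrxn3-led cells. In the other cluster comparisons the counts were 5 higher and 1 lower in Ccnd2-led than in Ube2c-led, 6 and 3 in Ube2c-led than in Egfr-led, 6 and 6 in Egfr-led than in Aqp4-led and 1 and 4 in Fabp7-led than in Aqp4-led cells. In the class comparisons they were 6 and 4 in progenitor-like than in astrocyte-like, 6 and 3 in oligodendrocyte precursor-like than in astrocyte-like and 7 and 5 in neuroblast-like than in excitatory neuron-like cells.

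Over the 10 classes found in both libraries the 6 members followed each other, with Pearson r of 0.885 to 0.996 between log2(CPM + 1) values over 10 classes within a library. The 10 non-member genes whose pattern over these classes was most like the mean of the 4 coding members included Gad2 (r = 0.980 in library 1 and 0.966 in library 2), Sp8 (0.972 and 0.952), Sp9 (0.973 and 0.916), Tiam2 (0.916 and 0.960), Gm14204 (0.945 and 0.905), Cdca7, Nlk, Rbm39 and Gad1. The classes of a library share its free RNA and depth, so these r are a description over 10 points. Gad2 and Gad1, enzymes of GABA synthesis, were among the marker genes, and Gad2 and Tiam2 among the clustering genes. In the clusters Gad2 stood at 693 ± 5.18 CPM in Nrxn3-led, 568 ± 44.9 in Ccnd2-led, 327 ± 40.9 in Ube2c-led and 11.3 ± 7.93 CPM in Egfr-led cells, where Dlx1 and Dlx2 averaged 92.0 ± 9.71 and 93.5 ± 18.6 CPM.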

How the data were processed

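Brain cells of 2 libraries of 1 group were measured by 3′ single-cell RNA sequencing. The deposited matrices hold raw UMI counts per gene and barcode, made by the authors with Cell Ranger 6.1.2 on mm10, per the submitters' processing notes. Barcodes were kept from 500 genes upward, up to a mitochondrial share of 10% of UMIs. Scrublet scores removed 626 doublets in library 1. In library 2 its threshold marked 0 cells, so the 897 highest-scoring barcodes (6%) were removed, a choice made after the data were seen.

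Cells were clustered in Scanpy 1.11.5 (2000 variable genes without the members and listed genes, 30 principal components, 15 neighbours, Leiden resolution 1). Clusters were named from fixed markers, with naming limits set after the clusters were seen: at least 3 markers at 2-fold and 20 CPM, and a mean log2 ratio of at least 0.5. Counts were summed per library and group and tested with edgeR 4.0.16 (TMM, quasi-likelihood, Benjamini-Hochberg adjustment). Library was a block because all groups of a library share its suspension. The cluster comparisons and neuroblast-like against excitatory neuron-like cells were added after the data were seen. DESeq2 1.42.0, other scalings, filters, cell limits and resolutions were alternatives. The edgeR step was tested on simulated data.

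The members and gene lists were chosen with earlier results of these data known. The genes named are the members, the 10 genes of most like pattern, and up to 4 called genes of largest fold change per list and comparison. Some genes that this rule names are not reported here. Library totals were 51452085 and 45532691 UMIs. Intervals and floors (3 counts) cover counting error only. A 3′ count does not scale with length, and levels are compared between groups, not between genes.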

Additional observations from a re-analysis of the deposited data

How the results depend on the processing

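No called member changed its direction under any alternative run for it. Without a limit on fold change the genes called numbered 5924 for neuroblast-like against progenitor-like cells (3288 with it), 6966 for progenitor-like against astrocyte-like (4368), 5143 for oligodendrocyte precursor-like against astrocyte-like (3231), 3122 for neuroblast-like against excitatory neuron-like (1918), 4588 for Egfr-led against Aqp4-led (2544), 4025 for Ube2c-led against Egfr-led (2333), 2364 for Ccnd2-led against Ube2c-led (1129), 2155 for Nrxn3-led against Ccnd2-led (843), 1209 for Adarb2-led against Nrxn3-led (617) and 3093 for Fabp7-led against Aqp4-led cells (1639). Members called were then 4 for neuroblast-like against progenitor-like, 1 for Ccnd2-led against Ube2c-led, 2 for Nrxn3-led against Ccnd2-led and 4 for Adarb2-led against Nrxn3-led cells. With stricter limits on cells 1616 genes were called for neuroblast-like against progenitor-like, 599 for Ccnd2-led against Ube2c-led and 1421 genes and 4 members for Adarb2-led against Nrxn3-led cells, where the cluster matched to Adarb2-led was the smaller inhibitory neuron-like one. With 4000 variable genes these were 1979 for neuroblast-like against progenitor-like, 276 for Nrxn3-led against Ccnd2-led and 332 for Adarb2-led against Nrxn3-led cells. With doublets kept 1414 genes were called for Ube2c-led against Egfr-led, 264 for Adarb2-led against Nrxn3-led and 1 member for Ccnd2-led against Ube2c-led cells. Without a filter on low counts 4 members were called for Egfr-led against Aqp4-led cells (3 with it), 1 member was called for Ccnd2-led against Ube2c-led and 2 for Fabp7-led against Aqp4-led cells, and at resolution 2 the last comparison gave 2469 genes and 3 members. The cause was not tested. The library number is a block in the fit, since groups share a library. Without the replicate block the genes called were 3283, 4369, 3224, 1898, 2512, 2293, 1092, 805, 589 and 1603 in the order above, and the members called did not change (1, 6, 0, 6, 3, 6, 0, 0, 0 and 1). Leaving out a library leaves 1 per group, which gives values and no test. At resolution 0.5 the cluster comparisons had no value because clusters merged. Fabp7-led and Aqp4-led clusters also matched the same cluster with stricter limits, doublets kept, 4000 variable genes, and members and listed genes allowed. Of the clustering alternatives, only resolution 2 thus gave values for Egfr-led or Fabp7-led against Aqp4-led cells. Comparisons with Ube2c-led cells had no value with 4000 variable genes or with members allowed, where that cluster and the histone-led one matched the same cluster. The inhibitory neuron-like class held at least 50 cells in both libraries under 4 alternatives. Its members called lower than in neuroblast-like cells were 5 with stricter limits, 6 with doublets kept, 6 at resolution 0.5 and 0 at resolution 2. At resolution 2 their edgeR adjusted p ran from 0.0146 to 0.0663. Of all genes 13.5%, 12.2%, 10.4% and 7.11% were called in either direction, in the same order. Against excitatory neuron-like cells 6, 4, 6 and 6 members were called higher, where 7.09%, 5.65%, 8.83% and 8.87% of genes were called in either direction. With doublets kept 71.6% and 63.6% of that class were excitatory neuron-like cells at the settings used throughout. Depth limits Dlx6 and Dlx1as most.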
